A study of Mus musculus with 2 samples.

Results

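The genes described here are 10 genes of lipid uptake, transport and storage, Apoe, Abca1, Abcg1, Lpl, Fabp4, Fabp5, Pltp, Cd36, Plin2 and Pparg, out of the 27998 genes in the count tables. They were chosen by name, with earlier results of these data known. Their unique molecular identifier (UMI) counts were summed over cells of each deposited cell type annotation and each day. All 10 had counts in both libraries. The material was tibialis anterior muscle, a muscle at the front of the lower leg, from C57BL/6J mice whose muscle had been injured by notexin, a snake venom toxin that destroys muscle fibres. The day 2 library was taken 2 days and the day 7 library 7 days after the injection, and no uninjured muscle is among them. Each library came from 1 mouse, with dissociated whole muscle loaded on a droplet (10x Chromium v3) platform. The sample labels give both mice as 7 months old and female, whereas the deposited cell annotation gives both as male, the day 2 mouse as 4 months old and the day 7 mouse as 7 months old. Day, mouse, library and, by that annotation, age therefore cannot be told apart.

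Because each day had 1 library, no difference below was tested against biological spread. Intervals in parentheses are 95% intervals that cover counting error only. A level is given as counts per 1000000 UMI counts (CPM) in the summed cells, and annotations are ranked among those with at least 20 cells on that day. After limits on genes, transcripts and mitochondrial share, 3178 annotated cells remained in the day 2 and 3196 in the day 7 library, with medians of 9058.5 and 6583 counts per cell, and 1 cell barcode occurred in both libraries. Monocytes and macrophages (6 annotations) numbered 1292 and then 757 cells, endothelial cells (4 annotations) 336 and 333, and FAPs (fibro/adipogenic progenitors, mesenchymal cells that lie between the fibres, 3 annotations) 215 and 805. Median counts per cell were lower in the day 7 library in these classes, 11696 and 8546, 6104.5 and 4217, and 24329 and 8429. Each class held its own markers. The 8 monocyte and macrophage markers summed to 16124 and 36630 CPM in that class, the 5 endothelial markers to 4806 and 5941 CPM in endothelial cells, and the 5 FAP markers to 7304 and 21209 CPM in FAPs.

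Lipids reach cells as lipoproteins, which are split at the vessel wall or taken up whole, and as free fatty acids bound by carrier proteins inside the cell. Cholesterol that a cell does not need is handed to lipoprotein particles by membrane transporters, and excess fatty acid is kept as triglyceride in lipid droplets. Macrophages that clear dead muscle fibres take on large amounts of membrane lipid, capillary endothelium passes fatty acids to the muscle, and FAPs are named for their capacity to become adipocytes.

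The members lie on 8 different chromosomes in the GRCm38 build (GENCODE vM21), with Fabp4 (chromosome 3, bases 10204088 to 10208576, minus strand) and Fabp5 (chromosome 3, bases 10012548 to 10016607, plus strand) on the same chromosome, and with Abca1 (53030787 to 53159895) and Plin2 (86648386 to 86670060) both on the minus strand of chromosome 4. Pltp (chromosome 2, 164839518 to 164857711, minus strand) overlaps Ctsa on the opposite strand, and Pparg (chromosome 6, 115360951 to 115490399, plus strand) overlaps the antisense gene Gm44079. The 10x reads keep the strand of the transcript. Apoe lies on chromosome 7 (19696109 to 19699188, minus strand), Lpl on chromosome 8 (68880491 to 68907448, plus strand), Abcg1 on chromosome 17 (31057675 to 31117988, plus strand) and Cd36 on chromosome 5 (17781690 to 17888801, minus strand).

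Promoter sequence, from 250 bases before to 50 bases after the annotated start (RefSeq, GRCm38.p6), was found for 6 of the 10 members. The 4 printed here belong to Apoe, Abca1 and Pltp, which were higher at day 7 in monocytes and macrophages, and to Plin2, which was lower. Each is written 5′ to 3′ on the strand of the gene. Capitals mark matches on either strand to GGGCGG (the GC box, read as CCGCCC on the other strand), TATAAA and CACGTG. The windows were chr7:19699139-19699438 for Apoe, chr4:53159846-53160145 for Abca1, chr2:164857659-164857958 for Pltp and chr4:86670010-86670309 for Plin2, all on the minus strand.
Apoe: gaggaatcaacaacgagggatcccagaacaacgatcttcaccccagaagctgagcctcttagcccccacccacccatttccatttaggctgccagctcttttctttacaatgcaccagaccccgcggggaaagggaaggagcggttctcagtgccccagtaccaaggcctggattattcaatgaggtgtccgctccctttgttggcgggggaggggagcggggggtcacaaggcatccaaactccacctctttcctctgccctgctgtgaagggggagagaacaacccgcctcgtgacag
Abca1: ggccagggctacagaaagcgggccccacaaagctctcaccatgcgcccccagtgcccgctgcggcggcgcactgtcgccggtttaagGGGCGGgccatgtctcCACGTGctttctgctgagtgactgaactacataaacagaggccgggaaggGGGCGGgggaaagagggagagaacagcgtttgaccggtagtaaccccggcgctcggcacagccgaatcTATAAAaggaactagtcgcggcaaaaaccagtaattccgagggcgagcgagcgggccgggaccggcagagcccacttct
Pltp: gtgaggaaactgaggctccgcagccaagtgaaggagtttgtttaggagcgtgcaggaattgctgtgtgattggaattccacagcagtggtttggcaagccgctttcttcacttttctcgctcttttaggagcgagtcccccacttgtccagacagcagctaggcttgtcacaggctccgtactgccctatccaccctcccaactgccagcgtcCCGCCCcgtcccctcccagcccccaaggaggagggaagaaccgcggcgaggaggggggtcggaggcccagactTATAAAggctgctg
Plin2: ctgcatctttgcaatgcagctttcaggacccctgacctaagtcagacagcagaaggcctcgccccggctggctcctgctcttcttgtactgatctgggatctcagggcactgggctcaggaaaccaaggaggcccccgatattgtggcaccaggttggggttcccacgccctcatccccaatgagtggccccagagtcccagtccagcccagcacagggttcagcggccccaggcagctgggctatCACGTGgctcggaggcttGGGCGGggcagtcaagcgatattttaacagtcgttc

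The Abca1 window held 2 GC boxes, 1 CACGTG and a TATAAA that began 29 bases before the start. The Plin2 window held 1 GC box and 1 CACGTG, and the Pltp window held 1 GC box and a TATAAA inside the transcript. The Apoe window held no match to any of the 3. Over all 32851 promoters in the table, 35.7% held a GC box, 13.6% a TATAAA and 7.15% a CACGTG. The direct repeats DR1 and DR4, to which PPAR and LXR receptors bind with their partner RXR, were found in none of the 10 promoter entries of the members and in 0.448% and 0.231% of all promoters. These matches describe letters in these windows and say nothing of binding.

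Apoe, Pltp, Abca1 and Abcg1, genes of lipoproteins and sterol export, were higher at day 7 than at day 2 in monocytes and macrophages, where all 4 lay above free RNA (the RNA in barcodes with 1 to 100 counts) on both days. They were also higher in endothelial cells and FAPs, but in FAPs Apoe, Pltp and Abcg1 lay below the level in free RNA on both days. After the ambient RNA correction of the authors the log2 ratio of Apoe in FAPs was 0.33, whereas Pltp and Abcg1 there stayed at least 2-fold higher. For the fatty acid carriers Fabp4 and Fabp5 the sign of the log2 ratio differed between classes. Among genes with at least 100 counts over both libraries in a class, all 10 members could be assessed in monocytes and macrophages. There, 5 were at least 2-fold higher at day 7, against 12.8% of 8847 genes, and 2 were at least 2-fold lower, against 13.6%. All 10 could be assessed in endothelial cells, where 8 were at least 2-fold higher, against 10.9% of 5676 genes, and 0 at least 2-fold lower, against 9.8%. In FAPs 8 of the 10 could be assessed, and 6 of them were at least 2-fold higher, against 20.2% of 8988 genes, and 2 at least 2-fold lower, against 15%. The 6 higher members in FAPs were 4 with SoupX values, where Apoe was within 2-fold and Fabp4 gave no ratio, and 4 with cells thinned to 2000 counts, where Abcg1 and Pltp gave none. The 2 lower members in FAPs were 0 with SoupX values and 1 with thinned cells, and the 2 in monocytes and macrophages were 0 with median-of-ratios scaling. The median log2 ratio of day 7 to day 2 over the assessed members was 0.95, 2.60 and 2.75 in the 3 classes, beside -0.15, -0.03 and 0.09 over all genes assessed. Cd36 (13 and 34 counts) and Pparg (4 and 11 counts) were too low in FAPs to be assessed.

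**Figure D1:**
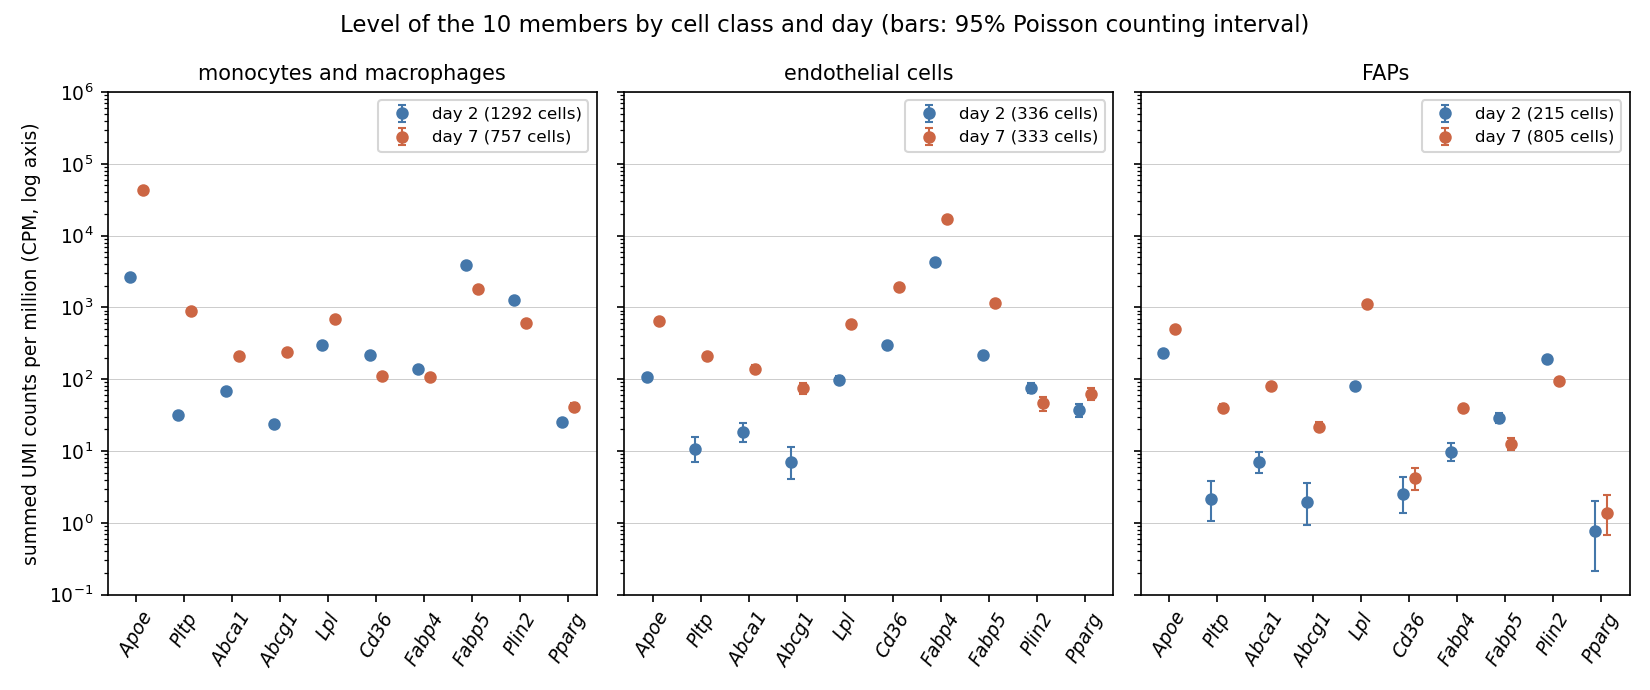
Summed UMI counts on the CPM scale, with a log axis, for the 10 members in monocytes and macrophages, endothelial cells and FAPs, with blue points for the day 2 library, orange points for the day 7 library and bars for the 95% Poisson counting interval. In monocytes and macrophages the Apoe point moves from 2672 to 43534 CPM, whereas in endothelial cells Fabp4 is the highest point on both days, at 4253 and 17247 CPM.

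Apoe encodes apolipoprotein E, the ligand by which lipoprotein remnants bind their receptors, and is secreted by macrophages. Its level in monocytes and macrophages was 2672 CPM at day 2 and 43534 CPM at day 7, a 16.3-fold difference (log2 4.03, 4.01 to 4.04). The difference was spread over the cells, with a median of 1726 CPM per cell at day 2 and 36292 CPM at day 7, and the 10th percentile at day 7 (5147 CPM) lay near the 90th percentile at day 2 (6053 CPM). All 6 annotations were higher at day 7. Monocyte (Patrolling) went from 4538 to 47226 CPM, M2 Macro. (Cx3cr1_lo) from 2653 to 44946, M2 Macro. (Cx3cr1_hi) from 2368 to 50135, M1 Macro. from 2273 to 43677 and Monocyte (Cxcl10+) from 2158 to 48563. Monocyte (Inflammatory) was the lowest of the 6 on both days, at 1898 and 13683 CPM. Neighbours in the order of these 6 levels differed beyond counting error, except that at day 2 M1 Macro. differed from neither M2 Macro. (Cx3cr1_hi) nor Monocyte (Cxcl10+).

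Free RNA, taken from barcodes with 1 to 100 counts, held Apoe at 713 CPM at day 2 and 9534 CPM at day 7. Of the annotations with at least 20 cells, 6 of 18 at day 2 and 6 of 23 at day 7 lay above that level, and these were the 6 of monocytes and macrophages. In endothelial cells Apoe was 106 CPM (93.4 to 120) and then 641 CPM, and in FAPs 229 CPM and then 508 CPM, all below the level in free RNA. T cells held 55 CPM (30.8 to 90.8) and 1052 CPM, but with monocyte and macrophage markers at 231 and 943 CPM they are no clean reference for this gene. The ambient RNA correction of the authors (SoupX) took away 16.2% and 41.1% of the Apoe counts in endothelial cells and 9.01% and 48.5% in FAPs, but 0.811% and 0.588% in monocytes and macrophages. With the corrected values the log2 ratio in FAPs was 0.33 in place of 1.15. The uncorrected ratio was 0.68 in FAPs (Pro-remodeling), within 2-fold, 1.62 in FAPs (Adipogenic) and 3.07 in FAPs (Stem). Monocyte and macrophage markers summed to 121 and 146 CPM in endothelial cells and to 126 and 134.5 CPM in FAPs, and their part in the Apoe values was not tested.

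Pltp encodes phospholipid transfer protein, which moves phospholipid between lipoproteins. The level in monocytes and macrophages went from 32.0 CPM (29.3 to 34.8) to 880.7 CPM, which was 27.5-fold (log2 4.78, 4.66 to 4.91). Endothelial cells held 10.7 CPM (7.00 to 15.7) and 207 CPM (186 to 230), and FAPs 2.14 CPM (1.07 to 3.83) and 40.3 CPM (36.0 to 44.8). M2 Macro. (Cx3cr1_lo) at 1331 CPM and M2 Macro. (Cx3cr1_hi) at 1044 CPM were the highest annotations at day 7. The day 2 levels of endothelial cells and FAPs rested on 26 and 11 counts, so these 2 ratios have wide intervals (log2 3.70 to 4.91 and 3.37 to 5.25). Free RNA held Pltp at 6.88 and 165 CPM, so that FAPs lay below it on both days, whereas monocytes and macrophages lay above it. Endothelial cells were above it at day 7, and at day 2 their counting interval overlapped that of free RNA (4.26 to 10.5). SoupX removed 10.2% and 10.6% of the Pltp counts in FAPs and 2.05% and 1.76% in endothelial cells. Beyond that correction, the part of free RNA in these ratios was not tested.

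Abca1 and Abcg1 encode the transporters that pass cholesterol out of the cell, to lipid-poor apolipoprotein A-I and to formed particles respectively. Abca1 in monocytes and macrophages was 69.1 CPM (65.1 to 73.2) at day 2 and 211 CPM (201 to 222) at day 7, which is 1.61 (1.5 to 1.72) as a log2 ratio. The Abca1 ratio was within 2-fold in Monocyte (Patrolling) (0.66) and Monocyte (Inflammatory) (0.91). In the other annotations of the class it lay between 1.58 and 2.21. Abcg1 went from 23.7 CPM (21.4 to 26.2) to 238 CPM (228 to 250), a log2 ratio of 3.33 (3.17 to 3.49). The order of the classes was the same for both genes on both days, with monocytes and macrophages above endothelial cells and these above FAPs, and each step was larger than counting error.

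Outside the macrophages the day 7 levels of both transporters were also higher, but free RNA was higher too, with 24.6 and 69.1 CPM of Abca1 and 3.60 and 38.9 CPM of Abcg1. Endothelial Abca1 was 18.1 CPM (13.2 to 24.4) and then 138 CPM (121 to 157), and endothelial Abcg1 7.01 CPM (4.08 to 11.2) and then 75.1 CPM (62.6 to 89.4). In FAPs Abca1 went from 7.01 CPM (4.91 to 9.71) to 81.3 CPM (75.3 to 87.8) and Abcg1 from 1.95 CPM (0.934 to 3.58) to 21.8 CPM (18.8 to 25.3). Their log2 ratios were 2.93 and 3.42 in endothelial cells and 3.54 and 3.49 in FAPs. Abcg1 in FAPs lay below free RNA on both days, though at day 2 within counting error. SoupX removed 4.76% and 4.51% of the Abcg1 counts in FAPs. Abca1 in endothelial cells and FAPs lay below it at day 2 and above it at day 7, with overlapping intervals in endothelial cells at day 2 and in FAPs at day 7. Endothelial Abcg1 was above free RNA on both days, at day 2 within counting error. Endothelial (Vein), with 21 cells, had the highest Abca1 level of any annotation at day 7, 335 CPM, which did not differ from the 315 CPM of M2 Macro. (Cx3cr1_lo) beyond counting error. Abcg1 at day 2 was highest in Neutrophils (57.0 CPM) and Monocyte (Cxcl10+) (55.7 CPM), which did not differ beyond counting error.

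**Figure D2:**
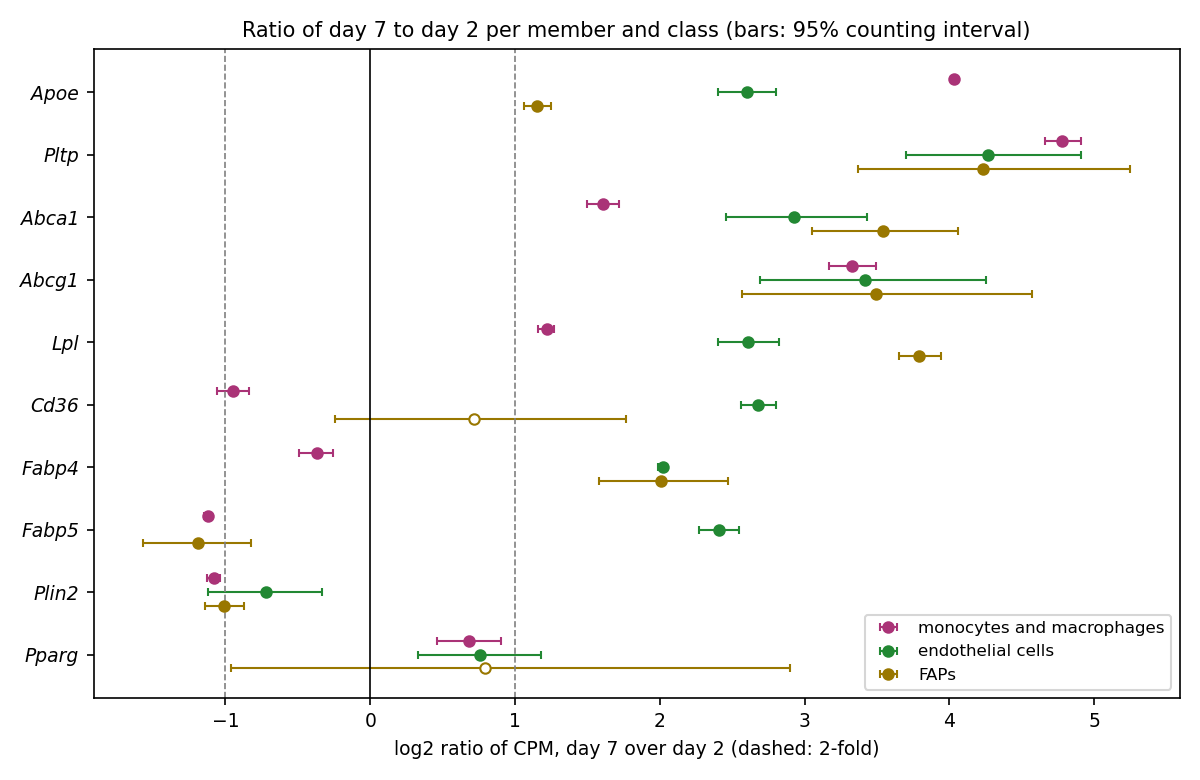
Log2 ratio of CPM at day 7 to day 2 for each member, with 1 colour per class, bars for the 95% counting interval, dashed lines at 2-fold and open points for Cd36 and Pparg in FAPs, which were too low to assess. Apoe, Pltp, Abca1, Abcg1 and Lpl lie to the right of the 2-fold line in all 3 classes, and Fabp5 lies right of it in endothelial cells (2.41) and left of it in monocytes and macrophages (-1.12) and FAPs (-1.19).

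Lpl encodes lipoprotein lipase, the enzyme that frees fatty acids from circulating triglyceride at the vessel wall. At day 2 it was highest in monocytes and macrophages, at 297 CPM (289 to 306), with 97.3 CPM (85.3 to 110.5) in endothelial cells and 79.9 CPM (72.3 to 88.0) in FAPs. At day 7 FAPs led, at 1107 CPM (1084 to 1130), above the 691 CPM (672 to 710) of monocytes and macrophages and the 592 CPM (556 to 630) of endothelial cells. The log2 ratio was 3.79 (3.65 to 3.94) in FAPs, 2.61 (2.40 to 2.82) in endothelial cells and 1.22 (1.16 to 1.27) in monocytes and macrophages. That last value pools annotations that differed, with 0.48 in M2 Macro. (Cx3cr1_hi) and 0.69 in M2 Macro. (Cx3cr1_lo), both within 2-fold. M1 Macro. (1.06), Monocyte (Patrolling) (1.54) and Monocyte (Inflammatory) (2.54) were past 2-fold, and Monocyte (Cxcl10+) had too few counts to be assessed. Lpl was the only member of which FAPs held the highest level among the 3 classes on either day. FAPs (Pro-remodeling) held 96.6 and then 1212 CPM, FAPs (Adipogenic) 75.8 and then 927 CPM and FAPs (Stem) 34.7 and then 574 CPM. At day 2 the 30 FAPs (Adipogenic) cells held neutrophil markers at 904 CPM and monocyte and macrophage markers at 449 CPM. At day 7 these stood at 1.215 and 160 CPM, and their part in the Lpl levels was not tested. The day 7 level of FAPs (Pro-remodeling) did not differ beyond counting error from the 1267 CPM of Monocyte (Patrolling), the highest annotation. Of all Lpl counts in kept cells, the share in monocytes and macrophages was 79.8% (78.8 to 80.8) in the day 2 library, against 30.7% (30.02 to 31.4) in the day 7 library. The share in FAPs was 6.67% (6.06 to 7.33) and then 53.3% (52.6 to 54.1). Of all counts of kept cells, monocytes and macrophages held 48.45% and 27.2%, and FAPs 15.1% and 29.5%.

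Cd36 encodes a scavenger receptor and fatty acid transporter of macrophages and capillary endothelium. Endothelial cells held it at 299 CPM (278 to 322) at day 2 and 1916 CPM at day 7, a log2 ratio of 2.68 (2.56 to 2.80). Monocytes and macrophages held it at 217 CPM (210 to 225) and 113 CPM (105 to 120), a log2 ratio of -0.95 (-1.06 to -0.84). This pools annotations that differed, with -2.61 in M2 Macro. (Cx3cr1_hi) and -1.36 in Monocyte (Patrolling), both past 2-fold, and 0.30 (-0.16 to 0.74) in Monocyte (Inflammatory). At day 2 the endothelial level was 1.38-fold (1.27 to 1.49) that of monocytes and macrophages, and at day 7 it was 17.0-fold (15.8 to 18.4). Monocyte (Patrolling), at 453 CPM, was the highest annotation at day 2, but at day 7 the 4 endothelial annotations lay between 1599 and 2019 CPM, and Monocyte (Patrolling) was at 176 CPM. FAPs held 2.53 CPM (1.35 to 4.33) and 4.17 CPM (2.89 to 5.83), and SoupX removed 70.5% and 79.9% of those counts. Free RNA held Cd36 at 83.5 and 167.5 CPM. Monocytes and macrophages lay above it at day 2 and below it at day 7, and endothelial cells above it on both days.

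Fabp4 and Fabp5 encode small cytosolic proteins that carry fatty acids. Fabp4 was an endothelial transcript on both days, with 4253 CPM in endothelial cells at day 2 and 17247 CPM at day 7, a log2 ratio of 2.02 (1.99 to 2.05). At day 7 it was 18396 CPM in Endothelial (Vein), 18031 in Endothelial (Capillary), 17192 in Endothelial (Stem) and 12146 in Endothelial (Artery). Its 10th percentile over endothelial cells was 815 CPM at day 2, beside a median of 3336 CPM, and 6796 CPM at day 7, beside a median of 16345 CPM. Monocytes and macrophages held 139 CPM (133 to 145) and 107 CPM (100 to 115), below the 424 and 1394 CPM of free RNA. The 6 annotations of that class differed in direction, with log2 ratios from -1.79 in M2 Macro. (Cx3cr1_hi) to 1.04 in Monocyte (Inflammatory) and 1.56 in Monocyte (Cxcl10+). With SoupX values Monocyte (Inflammatory) held 32.6 and 40.2 CPM, within 2-fold. M2 Macro. (Cx3cr1_hi) then held 86.3 and 3.20 CPM, and Monocyte (Cxcl10+) 96.4 and 290 CPM. In that class the 5% of cells with the most Fabp4 held 76.4% and 69.0% of its counts. FAPs held 9.74 CPM (7.23 to 12.8) and 39.3 CPM (35.1 to 43.8), and SoupX removed 100% and 89.6% of those counts.

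Fabp5 had the opposite home at day 2. It stood at 3882 CPM in monocytes and macrophages, 215 CPM (197 to 234) in endothelial cells and 28.6 CPM (24.2 to 33.7) in FAPs. At day 7 the levels were 1783, 1141 and 12.5 CPM. The step from monocytes and macrophages to endothelial cells was thus 18.1-fold (16.6 to 19.7) at day 2 and 1.56-fold (1.49 to 1.64) at day 7. The log2 ratio was -1.12 (-1.15 to -1.10) in monocytes and macrophages and 2.41 (2.27 to 2.55) in endothelial cells. Monocyte (Patrolling) held 7197 and 3935 CPM, the highest of the annotations on both days, but the study names these cells by high Fabp5, so that rank follows from the annotation and is no finding. The level of M2 Macro. (Cx3cr1_lo) was 4326 CPM at day 2 and 552 CPM at day 7, and M1 Macro. held 3796 and 1890 CPM. FAPs had a log2 ratio of -1.19 (-1.57 to -0.82) on 147 and 102 counts, of which SoupX removed 75.7% and 64.9%. With SoupX values that ratio was -0.67, within 2-fold. Free RNA held Fabp5 at 843 and 368 CPM. Monocytes and macrophages lay above it and FAPs below it on both days. Endothelial cells lay below it at day 2 and above it at day 7.

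**Figure D3:**
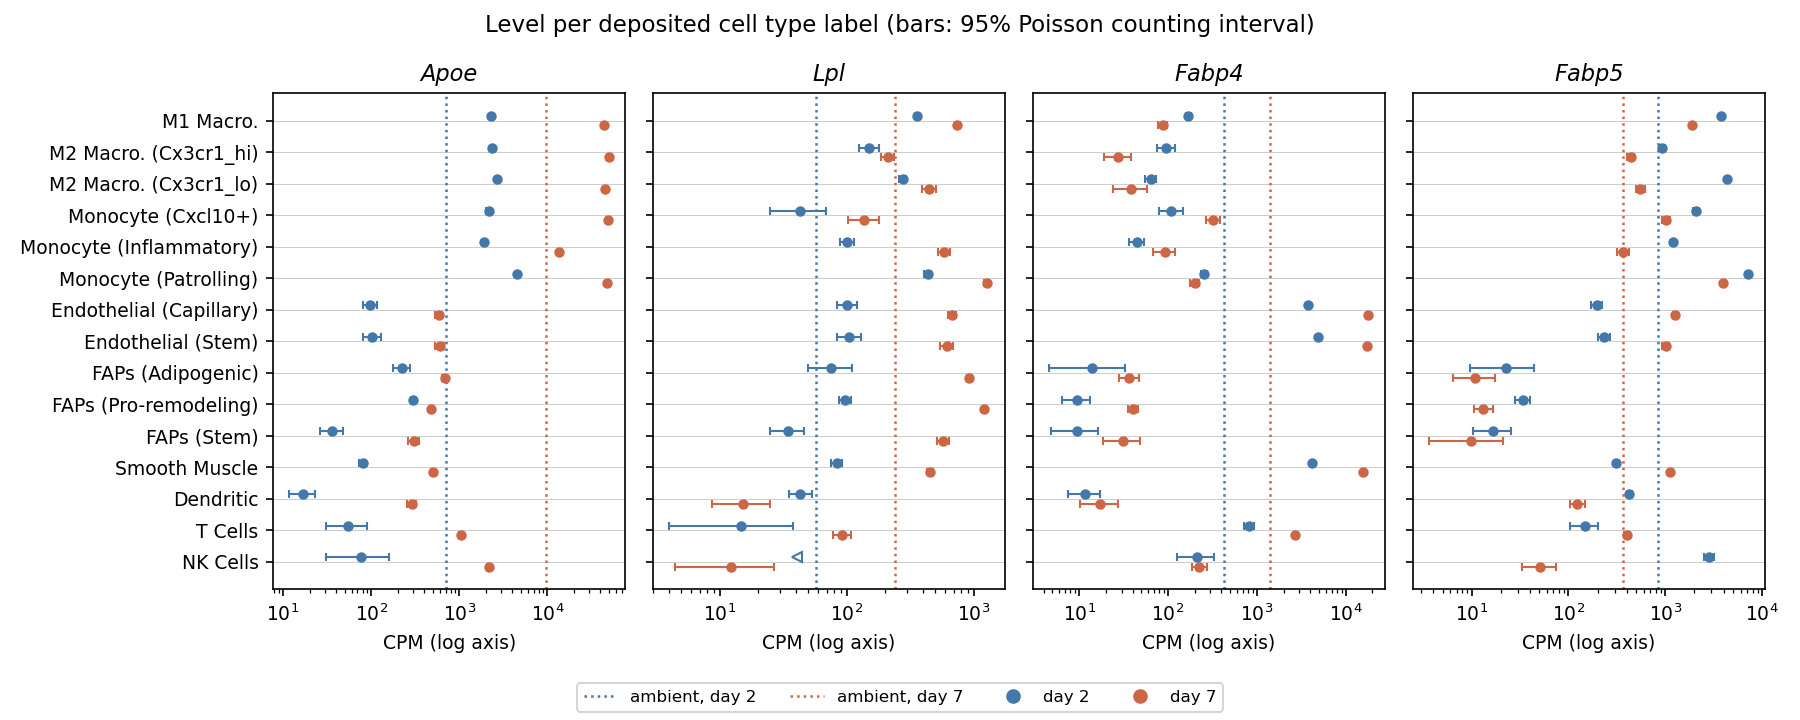
Level in CPM on a log axis of Apoe, Lpl, Fabp4 and Fabp5 in 15 deposited annotations, with blue points for day 2, orange points for day 7, bars for the 95% Poisson counting interval, dotted lines for the level in free RNA and an open triangle at the upper limit where the count was 0. For Apoe the 6 monocyte and macrophage annotations alone lie right of the dotted line of their day, and for Fabp4 the endothelial and Smooth Muscle annotations stand at 3742 CPM or more.

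Plin2 encodes perilipin 2, a coat protein of lipid droplets. It was lower at day 7 in each of the 3 classes, but past 2-fold in monocytes and macrophages and in FAPs only. Monocytes and macrophages held 1265 CPM at day 2 and 597 CPM at day 7 (log2 -1.08, -1.13 to -1.04), FAPs 188 CPM (176 to 200.4) and 93.7 CPM (87.2 to 101) (log2 -1.01, -1.14 to -0.87), and endothelial cells 75.5 CPM (64.9 to 87.2) and 45.9 CPM (36.2 to 57.4) (log2 -0.72, -1.12 to -0.33). The level stayed highest in Monocyte (Patrolling), at 1797 and 862 CPM. Both values past 2-fold lay close to the threshold. With median-of-ratios scaling the monocyte and macrophage ratio was -0.93, and that of Fabp5 in the same class was -0.97. The FAP ratio of Plin2, whose interval crosses 2-fold, was -0.99 with SoupX values and -0.72 with thinned cells. Free RNA held Plin2 at 333 and 148 CPM, also lower at day 7, and FAPs and endothelial cells lay below it on both days. SoupX removed 5.36% and 4.06% of the Plin2 counts in FAPs and 11.2% and 4.64% in endothelial cells. Beyond that correction, the part of free RNA in their ratios was not tested.

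Pparg encodes PPARγ, the nuclear receptor that drives fat cell formation and, in macrophages and endothelium, genes of fatty acid handling. It was 25.7 CPM (23.3 to 28.3) and 41.2 CPM (36.8 to 46.1) in monocytes and macrophages and 36.7 CPM (29.5 to 45.2) and 62.0 CPM (50.7 to 75.1) in endothelial cells. Neither ratio (log2 0.68 and 0.76) reached 2-fold. FAPs held 0.779 CPM (0.212 to 1.99) and 1.35 CPM (0.674 to 2.42), so monocytes and macrophages stood 33.0-fold (12.8 to 122) and 30.5-fold (16.8 to 61.8) above them. FAPs (Adipogenic) held 3.04 CPM at day 7. Of 5 adipocyte markers, Adipoq, Plin1, Cidec, Lep and Cidea, none had a count in FAPs at day 2, and at day 7 Plin1 had 3, Cidec 1 and Cidea 1 in 8150030 counts, with Adipoq and Lep at 0. FAPs (Adipogenic) held 1 such count in 1646594 at day 7.

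The share of cells with a UMI depends on depth and on free RNA, so each cell was thinned to 2000 counts and T cells were set beside the 3 classes. T cells had medians of 3318.5 and 3620 counts, and 46 and 248 of them could be thinned. They also held endothelial markers at 1255 and 1041 CPM and monocyte and macrophage markers at 231 and 943 CPM, the latter above the 146 and 134.5 CPM of endothelial cells and FAPs at day 7. Their shares are therefore given as values and not as a background for genes of those cells. Apoe was found in 75.7% and 97.6% of thinned monocytes and macrophages, in 18.4% and 63.8% of endothelial cells and in 22.5% and 50.7% of FAPs, beside 17.4% and 46.0% of T cells (unthinned 89.4% and 98.9%, 39.3% and 86.2%, 61.4% and 89.7%, and 22% and 72.4%). Lpl was found in 14.1% and 75.8% of FAPs, beside 2.17% and 6.45% of T cells (unthinned 67.0% and 93.0%, 4% and 11.9%). Pltp was found in 4.81% and 68.3% of monocytes and macrophages and 1.51% and 26.0% of endothelial cells, beside 0 of 46 T cells (upper limit 7.71%) and 3.23% (unthinned 20.3% and 88.5%, 5.95% and 45.0%, and 0% and 8.53%).

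By the same measure Cd36 was found in 37.9% and 92.6% of endothelial cells (unthinned 60.4% and 96.1%), and Fabp5 in 30.4% and 74.3% (unthinned 63.1% and 86.5%). T cells held Fabp5 in 15.2% and 16.1% and Cd36 in 0% (upper limit 7.71%) and 8.06% of thinned cells. Fabp4 was found in 10.2% and 10.5% of thinned monocytes and macrophages and in 2.35% and 7.90% of FAPs, beside 15.2% and 14.5% of T cells. T cells are no reference for this endothelial gene, since they held Fabp4 at 826 and 2692 CPM, above the 424 and 1394 CPM of free RNA, along with the endothelial markers given above. SoupX removed 8.71% and 35.3% of the Fabp4 counts in monocytes and macrophages. Pparg was found in 0 of 213 (upper limit 1.72%) and in 0.510% of thinned FAPs, against 1.61% of T cells at day 7. Abcg1 in endothelial cells at day 7 (13.6%) and in FAPs (4.84%) lay near or below the share in T cells (12.9%), a cell type in which this gene can be expressed.

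**Figure D4:**
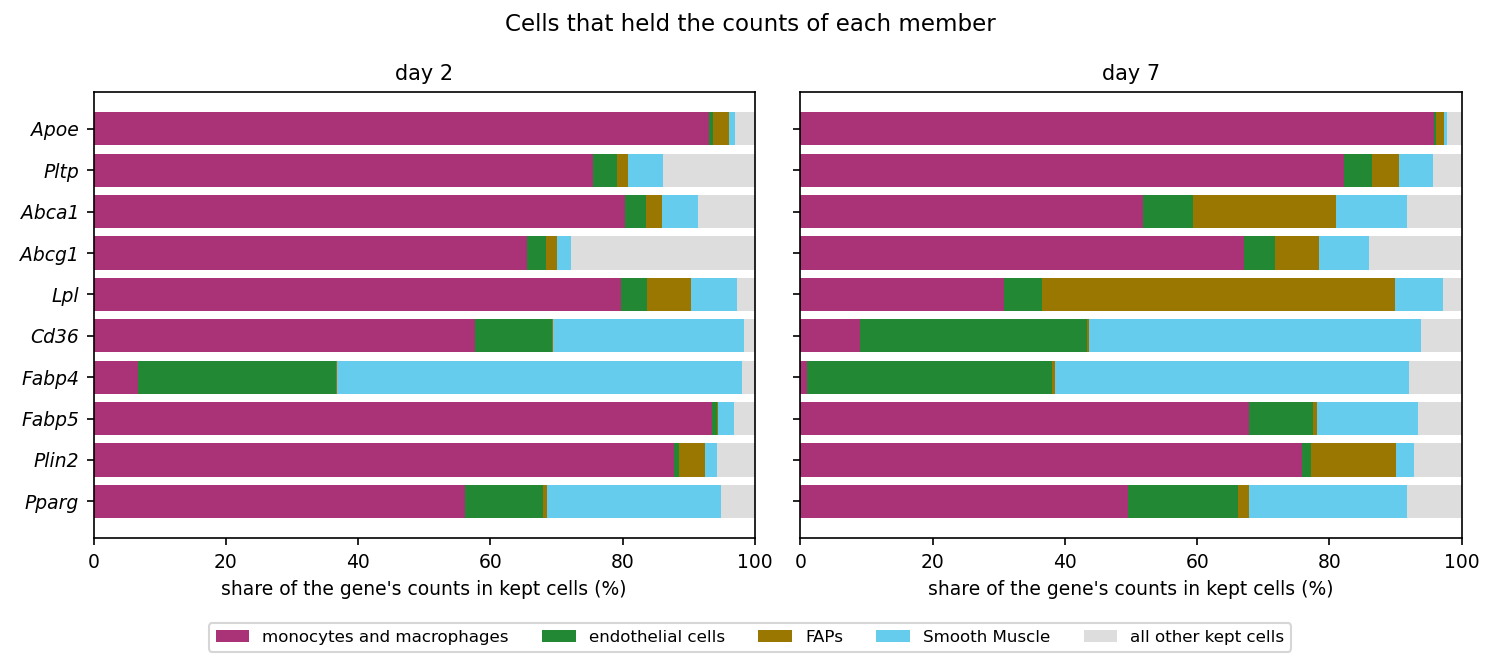
Share of the counts of each member in kept cells, in percent, that lay in monocytes and macrophages, endothelial cells, FAPs, the Smooth Muscle annotation and all other cells, with day 2 on the left and day 7 on the right. Monocytes and macrophages held 93.1% and 95.9% of Apoe counts, and most Fabp4 counts lay in the Smooth Muscle annotation (61.3% and 53.6%) and in endothelial cells (29.99% and 37.0%).

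Cells annotated as Smooth Muscle carried Fabp4, Cd36, Fabp5 and Lpl at levels near those of endothelial cells. Fabp4 was 4129 CPM at day 2 and 15468 CPM at day 7 in these 304 and 232 cells, Cd36 351 and 1734 CPM, Fabp5 308 and 1124 CPM and Lpl 83.8 and 455 CPM. The endothelial markers Pecam1, Cdh5, Kdr, Cldn5 and Emcn summed to 3699 and 5146 CPM in them, and the smooth muscle markers Acta2, Myh11, Rgs5 and Notch3 to 2000.3 and 4008 CPM. In the endothelial class the smooth muscle markers were at 376 and 313 CPM. On both days the annotation held more counts of endothelial than of smooth muscle markers, and it was joined to no class here. Counts from monocytes and macrophages made up 93.5% of Fabp5 counts at day 2 and 67.8% at day 7, and 57.6% and 9.02% of Cd36 counts, while the same cells held 48.45% and 27.2% of the counts of all genes.

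Other genes of lipid handling were counted from 8 lists, with 77 genes, of which 1 was not found in the files. Each count below is to be read beside the share over all genes assessed, which in monocytes and macrophages, endothelial cells and FAPs was 12.8%, 10.9% and 20.2% at least 2-fold higher and 13.6%, 9.8% and 15% at least 2-fold lower, with all-gene median log2 ratios of -0.15, -0.03 and 0.09. Most sterol and fatty acid synthesis genes assessed were lower at day 7, with 8 of 11 assessed at least 2-fold lower in monocytes and macrophages (median log2 ratio -1.36), 5 of 7 in endothelial cells (-1.63) and 8 of 12 in FAPs (-1.91), and 0, 1 and 0 at least 2-fold higher. Idi1, which makes an isoprenoid precursor of cholesterol, went from 59.5 to 8.11 CPM in monocytes and macrophages (log2 -2.87), from 47.8 to 7.75 CPM in endothelial cells (-2.63) and from 144 to 6.26 CPM in FAPs (-4.52). Sqle, which encodes squalene epoxidase, went from 44.5 to 4.39 CPM in monocytes and macrophages (-3.34) and from 120.2 to 8.34 CPM in FAPs (-3.85). Scd2, a fatty acid desaturase, was the only assessed gene of the list at least 2-fold higher, at 15.7 and 97.2 CPM in endothelial cells (log2 2.63). Its log2 ratio was 0.29 (0.01 to 0.56) in monocytes and macrophages and 0.56 in FAPs (106 and 157 CPM), and that of Scd1, a related desaturase, was 0.49 in FAPs (57.1 and 80.0 CPM).

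Sterol efflux genes other than the members included 4 of 8 at least 2-fold higher in monocytes and macrophages and 0 lower, with a median log2 ratio of 1.03, against 12.8% and -0.15 over all genes. They were Mylip (log2 2.25), a target of the sterol-sensing LXR receptors, Rxrb (1.39), Nr1h3 (1.35), which encodes the sterol sensor LXRα, and Apoc1 (1.23). In endothelial cells 1 of 4 was at least 2-fold higher, which was the HDL receptor gene Scarb1 (125.8 and 686 CPM, log2 2.45), and in FAPs 1 of 5, which was Mylip (20.3 and 85.9 CPM, log2 2.08). The 1 of 5 in FAPs is at the 20.2% of all genes, and 1 of 4 is too few to set against 10.9%.

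Surface receptors went the other way in monocytes and macrophages, where 5 of the 7 assessed and reported here were at least 2-fold lower and 0 higher (median log2 ratio -2.13), against 13.6% lower and 12.8% higher over all genes. Msr1, a scavenger receptor, went from 451 to 37.9 CPM (log2 -3.57), Mrc1, the mannose receptor, from 831 to 136 CPM (-2.62), and Stab1, another scavenger receptor, from 260 to 122.5 CPM (-1.09). Among those reported in endothelial cells, 2 of 2 were at least 2-fold higher, Scarb1 and Stab1 (64.3 and 135 CPM, log2 1.07). Among those reported in FAPs, 2 of 3 were at least 2-fold higher, Vldlr (13.4 and 50.1 CPM, log2 1.90) and Stab1 (4.09 and 10.1 CPM, 1.30), with Lrp1 at 431.5 and 798 CPM (0.89). With 2 and 3 genes these counts are too few to set against 10.9% and 20.2%.

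Among partners of lipoprotein lipase, Gpihbp1, which anchors the enzyme to capillary endothelium, was 794 and 1722 CPM in endothelial cells (log2 1.12). Angptl4, an inhibitor of the enzyme, was lower at day 7 in endothelial cells (72.2 and 16.1 CPM, log2 -2.16) and FAPs (238 and 107 CPM, -1.16) but higher in monocytes and macrophages (3.15 and 17.5 CPM, 2.48). Of 3 assessed partners in each class, 1, 1 and 0 were at least 2-fold higher and 0, 1 and 1 lower in monocytes and macrophages, endothelial cells and FAPs, too few to set against the shares over all genes.

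Lysosomal genes had 3 of 8 at least 2-fold higher in monocytes and macrophages, 1 of 6 in endothelial cells and 3 of 8 in FAPs, against 12.8%, 10.9% and 20.2% of all genes, and 0 lower in any of them. The endothelial count is near that share. Lipa, the lysosomal acid lipase, went from 130 to 419 CPM in monocytes and macrophages (log2 1.69) and from 30.6 to 80.0 CPM in FAPs (1.39). Psap, which encodes the saposin precursor, was higher in all 3 classes (log2 1.11, 1.25 and 2.25). Lipid droplet genes moved in both directions. In monocytes and macrophages Hilpda went from 227 to 53.7 CPM (log2 -2.08) and Dgat1 from 37.9 to 18.5 CPM (-1.04), whereas Pnpla2, the adipose triglyceride lipase, went from 32.6 to 70.5 CPM (1.11), so 1 of 8 was at least 2-fold higher and 2 lower. Endothelial cells had 1 of 6 higher (Lipe, log2 1.25) and 1 lower (Abhd5, -1.23), and FAPs 3 of 8 higher (G0s2, 2.00, Pnpla2, 1.39, and Plin3, 1.03) and 0 lower. The median log2 ratio of the 8 in FAPs was nevertheless -0.31, beside 0.09 over all genes. The counts of 1 of 8 and 1 of 6 are near the shares over all genes (12.8% higher in monocytes and macrophages, 10.9% higher and 9.8% lower in endothelial cells).

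Fatty acid entry and activation genes had 1 of 7 higher (Acsl1, log2 1.10) and 1 lower (Acsl4, -1.25) in monocytes and macrophages, 0 of 2 in either direction in endothelial cells, and 0 of 5 higher and 2 lower in FAPs (Acsl4, -1.99, and Acsl1, -1.84). The count of 1 of 7 in monocytes and macrophages is near the share over all genes in each direction (12.8% and 13.6%). Of the regulators of fat cell formation, Cebpb was at least 2-fold lower in each class (log2 -1.80, -1.58 and -1.88), as 1 of 3, 1 of 1 and 1 of 4 assessed. In FAPs Zfp423 was higher, at 2.34 and 17.8 CPM on 12 and 145 counts (log2 2.93, 2.08 to 3.91).

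Genes with a pattern most like that of each member were ranked by Pearson's r of log2(CPM + 10) over 29 profiles of an annotation on a day with at least 50 cells, among 8948 genes with at least 500 counts. The profiles share libraries, so r is a description. Apoe was most like C1qa (0.91), Trem2 (0.91) and Ms4a7 (0.90), and Fabp4 most like Gpihbp1, Icam2 and Adgrl4 (each 0.96). Plin2 was most like Nceh1 (0.95), Cstb (0.94) and Lgmn (0.93), and Cd36 most like Cd93 (0.91), Fam84b (0.89) and Slc12a7 (0.86). Abca1 came closest to Itm2b (0.91), Dhrs3 (0.89) and Sepp1 (0.88), Lpl to Rin2 (0.90), Tmem205 (0.89) and Tnfsf12 (0.88), and Fabp5 to Stab1, Slc6a6 and Ssu72 (each 0.84). Abcg1 and Pltp shared Trafd1 as closest gene (0.89 and 0.88), followed by Slc15a2 and Oas1a (each 0.86) for Abcg1 and by Rasa4 and Pgap2 (each 0.87) for Pltp. Pparg came closest to Sh3tc1 (0.91), Cttnbp2nl (0.87) and Sdc3 (0.84). Among the members themselves, r was highest between Abcg1 and Pltp (0.87), between Cd36 and Pparg (0.82) and between Fabp4 and Cd36 (0.81), and it was lowest between Fabp4 and Plin2 (-0.44).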

How the data were processed

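Per library, the authors deposited UMI counts (whole numbers) for all barcodes and for those called as cells, made with Cell Ranger (3.0.1 per the file headers, 3.1.0 in the submitters' processing notes) on mm10. They also deposited estimated counts after removal of ambient RNA by SoupX, with fractional values, and a table of cell types, for which doublets had been removed with DoubletFinder. No doublet caller was run here. Seurat 3.1.5 is named in the processing notes. Kept cells had a cell type in that table, with at least 750 genes, at least 1000 counts and at most 30% mitochondrial counts. These limits were applied to the SoupX values.

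Uncorrected counts were summed per class or annotation and day and divided by the sum of all genes. Such CPM values share a fixed total, so one abundant gene lowers the rest. Sums carry exact Poisson, shares exact Clopper-Pearson and ratios exact conditional binomial intervals (95%). They cover counting error only. With 1 library per day no p-value was computed. A gene was assessed with at least 100 counts over both libraries in a class and called past 2-fold. Ratios and intervals were run on simulated Poisson counts without variation between cells or mice, so that run covers counting error only. Members and lists were chosen with earlier results of these data known. Named by rule were all members, the pathway genes with the highest levels or the largest and smallest ratios past 2-fold, and the 3 genes most like each member. A gene of the surface receptor list is not reported here, and its list was counted without it. GENCODE vM21 held 27722 of the 27998 gene identifiers. Python 3.11.15, numpy 2.4.6, scipy 1.17.1, pandas 2.3.3 and matplotlib 3.10.9 were used.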

Additional observations from a re-analysis of the deposited data

Results flagged for a closer look

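For Fabp4, Fabp5 and Cd36 the sign of the log2 ratio differed between classes. The log2 ratio of day 7 to day 2 for Fabp4 was 2.02 in endothelial cells and 2.01 in FAPs, against -0.37 in monocytes and macrophages. That last value pools annotations that went both ways, with 1.56 in Monocyte (Cxcl10+) and 1.04 in Monocyte (Inflammatory) against -1.79 in M2 Macro. (Cx3cr1_hi), and the other 3 between -0.96 and -0.35. With SoupX values Monocyte (Inflammatory) was within 2-fold, at 32.6 and 40.2 CPM. M1 Macro. (162 and 48.5 CPM) and M2 Macro. (Cx3cr1_lo) (58.6 and 15.2 CPM) were then more than 2-fold lower. For Fabp5 it was 2.41 in endothelial cells, against -1.12 in monocytes and macrophages and -1.19 in FAPs. For Cd36 it was 2.68 in endothelial cells and -0.95 in monocytes and macrophages. The pooled values of Fabp4 and Cd36 in monocytes and macrophages did not reach 2-fold, although for Cd36 M2 Macro. (Cx3cr1_hi) was at -2.61 and Monocyte (Patrolling) at -1.36, with Monocyte (Inflammatory) at 0.30. In FAPs, SoupX removed 100% and 89.6% of the Fabp4 counts and 75.7% and 64.9% of the Fabp5 counts at day 2 and day 7. With 1 library per day, none of these differences was tested.

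Barcodes that were called as cells and met the limits, but were not in the deposited cell table, entered no comparison. At day 7 these 477 barcodes held Apoe at 7975.7 CPM and Fabp4 at 5583.6 CPM, above the 0.927 CPM that 3 counts would give. Free RNA at day 7 held 9534 CPM of Apoe, more than these barcodes, and 1394 CPM of Fabp4. At day 2 there were 680 such barcodes, with 1278 CPM of Apoe and 751.9 CPM of Fabp4. What these barcodes were was not tested.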

How the results depend on the processing

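The ratios of the members were recomputed under 7 other settings, and none past 2-fold changed direction. Of the 23 past 2-fold, 3 were within it with SoupX values, all in FAPs (Apoe 0.33, Fabp5 -0.67 and Plin2 -0.99 in log2), 2 with median-of-ratios scaling, both in monocytes and macrophages (Fabp5 -0.97 and Plin2 -0.93), and 1 with cells thinned to 2000 counts (Plin2 in FAPs, -0.72). The number of members at least 2-fold lower in monocytes and macrophages was therefore 0 in place of 2 with median-of-ratios scaling. In FAPs it was 0 in place of 2 with SoupX values, 1 with thinned cells, and 0 when the whole counting interval had to lie past 2-fold. Fabp4 in FAPs with SoupX values, and Abcg1, Pltp and Pparg in FAPs with thinned cells, were at 0 at day 2 and gave no ratio. Leaving out cells with 3 or more counts of markers of another class, taking the mean over cells, lifting the limits on cells and leaving mitochondrial genes out of the total took no ratio back across 2-fold. The counts of members at least 2-fold higher stayed within 1.5 times under every setting. No replicate could be left out, and no paired analysis was possible because each day had 1 library. For Pltp, Abcg1 and Abca1 in FAPs the 11, 10 and 36 counts at day 2 limit the precision.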

Other observations

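Fabp5 in NK Cells at day 2 was 2850 CPM (2513 to 3220), on 258 counts that lay in 3 of 21 cells, and 50.9 CPM (32.9 to 75.2) in 111 cells at day 7. The day 2 NK Cells annotation held monocyte and macrophage markers at 3966 CPM (359 counts) beside T and NK markers at 1094 CPM (99 counts), against 1065 and 1633 CPM at day 7, and their part in the Fabp5 value was not tested. Neural cells at day 7 (41 cells) held Apoe at 3306 CPM (3067 to 3558), the highest of the annotations with at least 20 cells outside monocytes and macrophages, and below the 9534 CPM of free RNA. Dendritic cells held Abcg1 at 20.5 CPM at day 2 and 154 CPM at day 7, and Pltp at 38.6 and 184 CPM. Neutrophils at day 2 held Plin2 at 464 CPM, above the 333 CPM of free RNA, and it was found in 45.1% of thinned cells.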
